A study of Mus musculus with 12 samples.

Results

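Transcripts of 55 protein-coding genes for translation initiation factors were measured in satellite cells, the stem cells of skeletal muscle, with and without the Hedgehog pathway transcription factor Gli3. The members were the genes annotated as protein-coding whose mouse symbol starts with Eif and a digit. They were 55 of the 25093 genes in the count table and of its 16583 protein-coding genes. A further 8 genes with such symbols were left out, 7 processed pseudogenes and 1 long noncoding RNA. The series holds 12 RNA-sequencing libraries in 4 groups of 3: quiescent satellite cells (QSCs) from uninjured hindlimb muscle and activated satellite cells (ASCs) taken 3 days after cardiotoxin injury, each from control and Gli3-deleted mice. Only the 6 QSC libraries are compared here, because the columns of the ASC libraries could not be tied to a genotype. The control genotype, called Gli3+/+, was Pax7-CreERT2/+;Gli3+/+;R26R-YFP. In the deleted genotype, called Gli3∆/∆, the same Cre driver and YFP reporter were combined with Gli3fl/fl. All mice were 3 to 4 months old and all received tamoxifen, so the groups share the Cre allele, the reporter and the drug. The paper lists the sequenced samples as males. The Cre is expressed from the Pax7 locus, which restricts deletion to satellite cells. Several mice were pooled for each QSC library, and the sort took α7-INTEGRIN+ CD34+ cells negative for CD31, CD45, SCA1 and CD11b.

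Initiation is the step of protein synthesis at which the small ribosomal subunit is loaded on an mRNA and finds the start codon. eIF2 brings the initiator tRNA and is recharged by eIF2B, eIF3 holds the small subunit, and eIF4F (the cap-binding eIF4E, the helicase eIF4A and the scaffold eIF4G) recruits the mRNA. Both inputs are regulated: kinases that phosphorylate the alpha subunit of eIF2 lower initiation under stress, and the eIF4E-binding proteins sequester eIF4E until the growth-signalling kinase complex mTORC1 phosphorylates them. In satellite cells, phosphorylation of eIF2 alpha is known to hold translation low during quiescence, and mTORC1 activity rises as the cells leave it.

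Total estimated counts ranged from 39556784 to 65750131 per library, and the members took 0.878 to 1.10% of them. Values are given in CPM, each gene's counts scaled to one common library total after trimmed mean of M-values (TMM) normalization. All 12 satellite cell markers were detected in each library, with Pax7 at 1052, 884 and 1036 CPM in Gli3+/+ QSCs and at 945, 1157 and 798 CPM in Gli3∆/∆ QSCs. Gli3 itself stood at 11.2, 9.71 and 9.75 CPM in Gli3+/+ QSCs and at 9.54, 10.5 and 6.25 CPM in Gli3∆/∆ QSCs, with overlap (adjusted p = 0.916 in edgeR). Cre removes the floxed exon, while gene counts take in all exons. Reads over the floxed exon were not examined, so the extent of deletion in these libraries was not tested. The paper reports from RT-qPCR that excision in QSCs was efficient. Summed over 7 genes, macrophage markers came to 10.1 to 26.9 CPM. Endothelial markers (5 genes) came to 133 to 211 CPM and myofiber markers (5 genes) to 34.2 to 58.1 CPM. Fibro-adipogenic markers (5 genes) came to 549 to 885 CPM and mural markers (4 genes) to 1393 to 2501 CPM, and no marker was at 0 in all libraries. The mural sum was mostly Notch3, which satellite cells also express, at 1328 to 2458 CPM. Of the other mural markers, Pdgfrb came to 6.03 to 10.8 CPM, Rgs5 stood at 43.2, 20.4 and 30.1 CPM in Gli3+/+ QSCs and at 11.1, 24.8 and 13.4 CPM in Gli3∆/∆ QSCs, and Myh11 at 27.4, 5.72 and 27.6 CPM in Gli3+/+ QSCs and at 6.28, 10.4 and 4.68 CPM in Gli3∆/∆ QSCs, both lower on average in Gli3∆/∆ but with overlap (adjusted p = 0.599 and 0.562 in edgeR). The fibro-adipogenic sum was mostly Dpt, at 378 to 536 CPM. Col1a1 stood at 187, 75.4 and 332 CPM in Gli3+/+ QSCs and at 110, 188 and 89.8 CPM in Gli3∆/∆ QSCs, highest in the third Gli3+/+ library. Dcn came to 64.8 to 111 CPM, Ly6a to 4.21 to 8.34 CPM and Pdgfra to 1.65 to 3.8 CPM. Summed Schwann cell markers (5 genes) came to 90.4, 69.6 and 103 CPM in Gli3+/+ and to 32.7, 49.3 and 49.1 CPM in Gli3∆/∆ QSCs, without overlap. The part of these cell types in the members' values was not tested. Immediate early and heat-shock genes, which enzymatic dissociation induces, were at 40710.2 to 58284 CPM summed over 9 genes, and the sums overlapped between genotypes. Of the 9 genes, 0 had a higher estimate in Gli3∆/∆ in edgeR. Only Junb did not overlap, at 4161, 3710 and 4278 CPM in Gli3+/+ and 2509, 3547 and 3565 CPM in Gli3∆/∆ QSCs (adjusted p = 0.758 in edgeR). Of all genes, 13% did not overlap. In such bulk libraries, fewer cells of a type and less RNA per cell cannot be told apart. The third Gli3+/+ library stood apart for the members, and results are given with and without it.

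All 55 members were detected in each of the 6 libraries, and 54 had a mean of at least 1 CPM. Levels of different genes are compared per kilobase of merged exon length, as the mean and range over the 6 libraries. Highest were Eif1, whose product guards start codon choice during scanning, at 225 CPM per kb (199.5 to 281), the eIF3 subunit gene Eif3h at 182 CPM per kb (166 to 224) and the helicase cofactor gene Eif4b at 163 CPM per kb (147 to 184). The helicase genes Eif4a1 and Eif4a2 followed at 141 CPM per kb (112 to 203) and 140.2 CPM per kb (134 to 147). Lowest were Eif4e1b, an eIF4E relative known from oocytes, at 0.0476 CPM per kb (0.0131 to 0.102), Eif5a2 at 1.62 CPM per kb (1.23 to 2.21) and Eif2ak2 at 2.88 CPM per kb (1.88 to 3.93). In that order the ranges of neighbours overlapped in 53 of 54 pairs, the exception being Eif5a2 and Eif4e1b, so most adjacent ranks are not distinguishable. Length scaling mattered for single genes: Eif4g2 ranked 1 by CPM and 7 per kb, and Eif3h ranked 9 by CPM and 2 per kb.

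**Figure D1:**
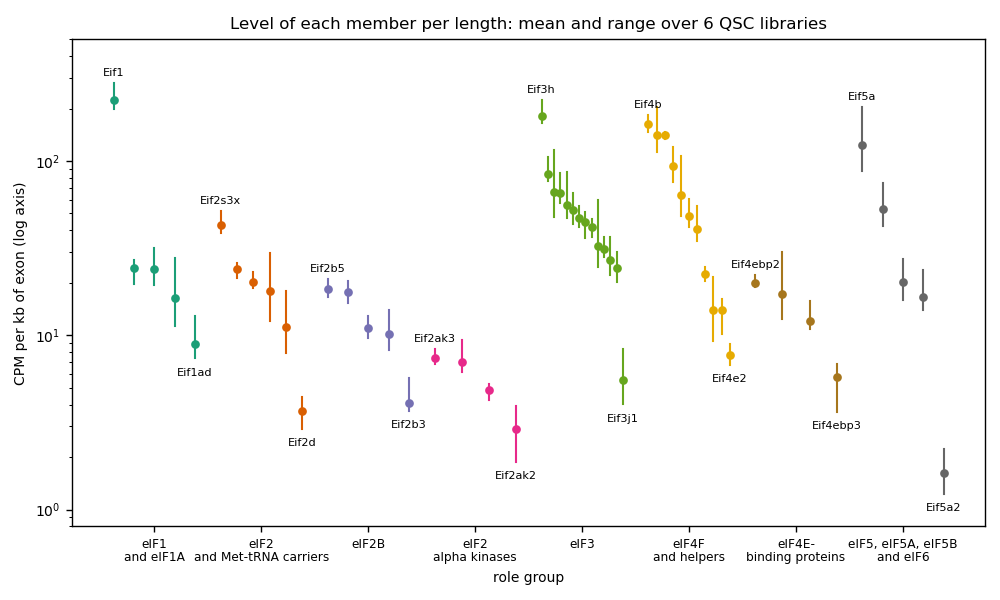
Level of each member in CPM per kb of exon (log axis) by role group, with the mean (point) and the range (line) over the 6 QSC libraries; Eif4e1b, at 0.0476 CPM per kb (0.0131 to 0.102), lies under the axis. The 4 eIF2 alpha kinases had means from 2.88 to 7.36 CPM per kb, while Eif1, Eif3h, Eif4b and Eif5a had means from 123 to 225 CPM per kb.

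The levels differed between subunits of the same complex. Within eIF3, the multisubunit factor that keeps ribosomal subunits apart and binds the mRNA, per-length levels ran from 5.57 CPM per kb (4.02 to 8.34) for Eif3j1, a loosely attached subunit, to the value of Eif3h. The Eif3j1 value depends on how reads are divided with its nearly identical relative Eif3j2. The next lowest of eIF3 was Eif3i at 24.5 CPM per kb (20.2 to 30.1). For eIF2, the gamma subunit gene Eif2s3x stood at 43.1 CPM per kb (38.6 to 51.7), the beta subunit gene Eif2s2 at 18 CPM per kb (12.1 to 29.7) and the alpha subunit gene Eif2s1 at 11.2 CPM per kb (7.95 to 17.9). The ranges of Eif2s3x and of both other genes did not overlap per kb. In CPM, Eif2s2 (82 to 200.5) did overlap Eif2s3x (147 to 197), so that separation rests on merged exon lengths of 6755 and 3812 bases. Merged length covers all annotated transcripts and can exceed that of the transcripts expressed. The 5 genes of eIF2B, the exchange factor of eIF2, ran from 4.11 CPM per kb (3.67 to 5.7) for Eif2b3 to 18.5 CPM per kb (16.5 to 21) for Eif2b5, the catalytic epsilon subunit. By CPM alone, Eif2b1 (rank 50 of the members) was below Eif2b3 (rank 49). Each of the eIF2B genes lay below Eif2s3x.

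RefSeq starts on GRCm38.p6 were available for 43 of the 55 members, and their first bases are shown because mRNAs that begin with a pyrimidine tract are translated under control of mTORC1. Windows run from 10 bases before the annotated start to 20 bases from it, at the first exon, and capitals mark the unbroken run of C or T from the start base. They lie at chr7:108934405-108934434 on the plus strand for Eif3f, at chrX:94212632-94212661 on the minus strand for Eif2s3x, at chrY:1010585-1010614 on the plus strand for Eif2s3y, at chr16:20672717-20672746 on the plus strand for Eif4g1 and at chr5:140419295-140419324 on the plus strand for Eif3b.
Eif3f: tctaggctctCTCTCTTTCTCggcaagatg
Eif2s3x: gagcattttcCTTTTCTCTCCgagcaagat
Eif2s3y: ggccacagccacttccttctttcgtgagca
Eif4g1: gcgcagctccgccctctgcgccggtcacgt
Eif3b: ggcgcgcggtgacttctgggagtcggaagc
Eif3f and Eif2s3x have a run of 11 pyrimidines from the first base, and the other 3 have none at that base. A start with C and then 4 pyrimidines was found in 2 of the 43 members (4.65%), these same genes, against 3.01% of 27025 genes with a RefSeq start. A match or its absence depends on the annotated base, and says nothing of use in these cells.

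The E-box CACGTG, which reads the same on both strands and is a binding sequence of MYC and its relatives, occurred in the 300 bases around a start (250 before, 50 after) in 10 of 43 members (23.3%). It occurred in 8.09% of all 27025 genes and in 11.8% of 9811 protein-coding genes at a mean of at least 1 CPM in these libraries. The sequence CCGGAAG or its reverse complement CTTCCGG, the core recognised by ETS factors, occurred in 16 of 43 members (37.2%), against 9.93% of all genes and 19.9% of those 9811 genes. Both were counted once a gene over all its starts, and no test was made. Some E-box windows are shown with the motif in capitals, at chr3:138527028-138527057 on the plus strand for Eif4e, at chr16:20672661-20672690 on the plus strand for Eif4g1, at chr5:134639488-134639517 on the minus strand for Eif4h and at chr7:28981915-28981944 on the minus strand for Eif3k.
Eif4e: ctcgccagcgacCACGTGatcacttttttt
Eif4g1: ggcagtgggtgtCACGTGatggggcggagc
Eif4h: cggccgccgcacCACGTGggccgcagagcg
Eif3k: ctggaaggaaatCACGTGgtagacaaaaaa
The E-box was present in 6 of the 28 members with a RefSeq start that were highest in the third Gli3+/+ library, among them Eif4e, Eif4g1 and Eif4h. It was also present in 4 of the other 15, Eif3k among them.

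The largest pattern across the members was a difference between libraries of the same genotype. Gli3+/+ replicate 3 held the highest value of the 6 libraries for 35 of 55 members (63.6%), against 23.2% of all genes and 27.5% of genes at a mean of at least 1 CPM. It held the lowest for 5 members, against 19.8% of all genes and 25.3% of genes at that level. The members' summed level was 8813, 8502 and 12008 CPM in Gli3+/+ and 9494, 8945 and 9439 CPM in Gli3∆/∆ QSCs. All 3 Gli3∆/∆ libraries thus lay between Gli3+/+ replicates 1 and 2 on one side and replicate 3 on the other. Against the mean of replicates 1 and 2, replicate 3 had a median ratio of 1.37 over the 54 members at a mean of at least 1 CPM, and of 0.987 over the 14696 genes at that level. The ratio was at least 2 for 8 of those members (14.8%), against 3.95% of the genes.

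**Figure D2:**
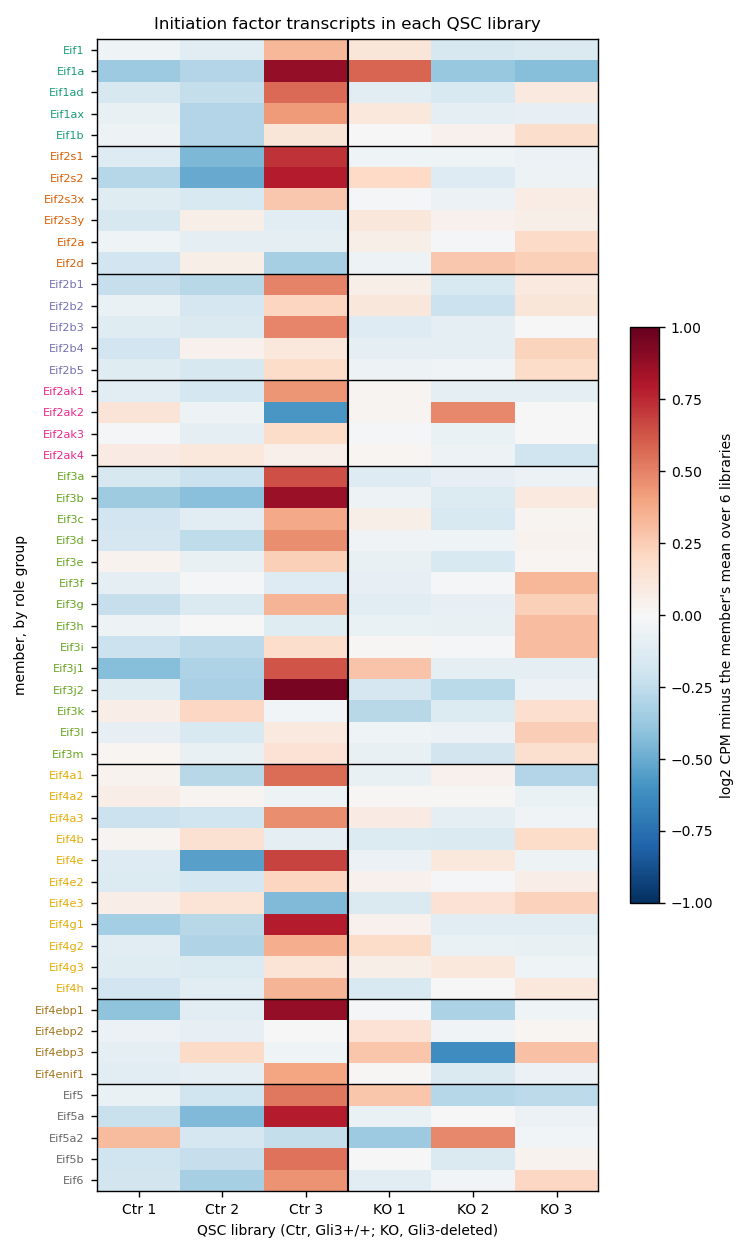
Each row is a member (role groups separated by lines) and each column a QSC library; colour is log2 CPM minus the member's mean over the 6 libraries, for the 54 members at a mean of at least 1 CPM. The column of Gli3+/+ replicate 3 is the highest of 6 for 35 members.

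The 8 members with a ratio of at least 2 came from different steps of initiation. They were Eif3b (2.37), an RNA-binding core subunit of eIF3, Eif3j2 (2.25), Eif1a (2.31), Eif2s2 (2.26) and Eif2s1 (2.0) of eIF2, Eif4ebp1 (2.18), Eif5a (2.16) and the scaffold gene Eif4g1 (2.14). The 5 members lowest in that library were Eif2ak2 (0.648), Eif4e3 (0.688), Eif2d (0.826), Eif3h (0.933) and Eif3f (0.954). Eif4b (0.879) and Eif4a2 (0.933) were also below 1. By role group, replicate 3 was highest for 4 of 5 genes of eIF1 and eIF1A, 3 of 6 of eIF2 with its alternative carriers and 4 of 5 of eIF2B. It was highest for 2 of 4 kinases, 8 of 14 genes of eIF3, 8 of 12 of eIF4F and its helpers, 2 of 4 eIF4E-binding proteins, and 4 of 5 of eIF5, eIF5A, eIF5B and eIF6. The library was neither the deepest nor the shallowest, and its normalization factor was the lowest, at 0.917 against 1.01 to 1.03.

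**Figure D3:**
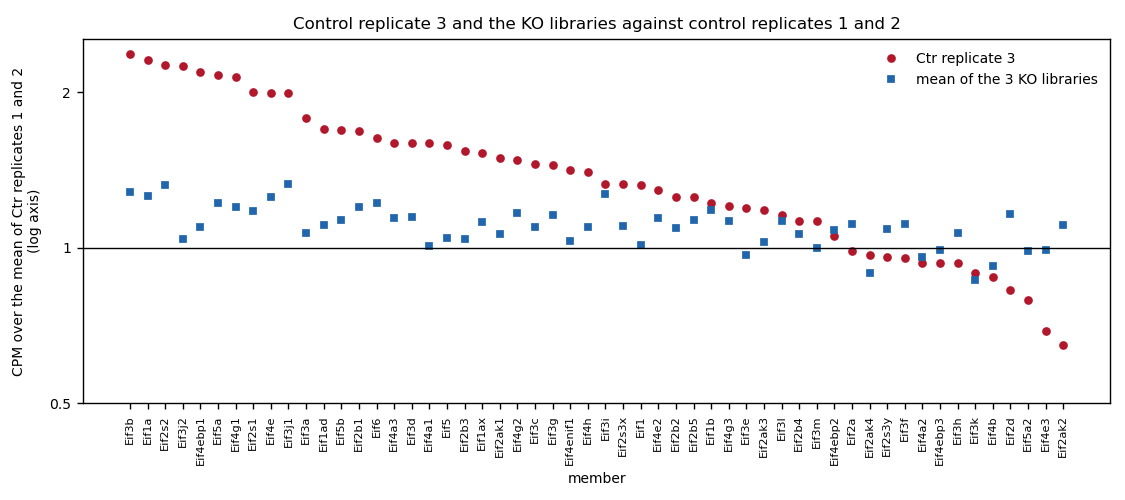
CPM of Gli3+/+ replicate 3 (circles) and mean CPM of the 3 Gli3∆/∆ libraries (squares), each divided by the mean of Gli3+/+ replicates 1 and 2 (log axis), for the 54 members at a mean of at least 1 CPM. Replicate 3 runs from 2.37 for Eif3b down to 0.648 for Eif2ak2.

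The comparison of Gli3∆/∆ with Gli3+/+ QSCs asks which transcripts depend on Gli3 in cells at rest. No member passed an adjusted p of 0.05 with a fold change of at least 1.2 in edgeR, where 0.351% of all genes did (0.187% higher and 0.163% lower in Gli3∆/∆). DESeq2 and limma-voom also called 0 of 55 members, against 1.64% and 0.291% of the genes they tested. No member had an unadjusted p under 0.05 in edgeR, DESeq2 or limma-voom, where 7.11%, 7.34% and 9.37% of genes did. The lowest adjusted p in edgeR was 0.785, for Eif2d. The groups did not overlap for 3 members, against 13% of all genes. Of these, 2 were higher in Gli3∆/∆, against 6.39% of all genes, and 1 was lower, against 6.57%. Fold changes were positive, that is higher in Gli3∆/∆, for 22 of 55 members against 45% of all genes, and for 21 of the 54 at a mean of at least 1 CPM, against 47.2% of genes at that level. Their median was -0.05 on the log2 scale, and that of all genes -0.03. The 95% intervals of the fold changes given below reach up to 0.83 upward (Eif2ak2) and down to -1.12 (Eif3j2), and differences inside these intervals could not be resolved with 3 libraries a group.

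**Figure D4:**
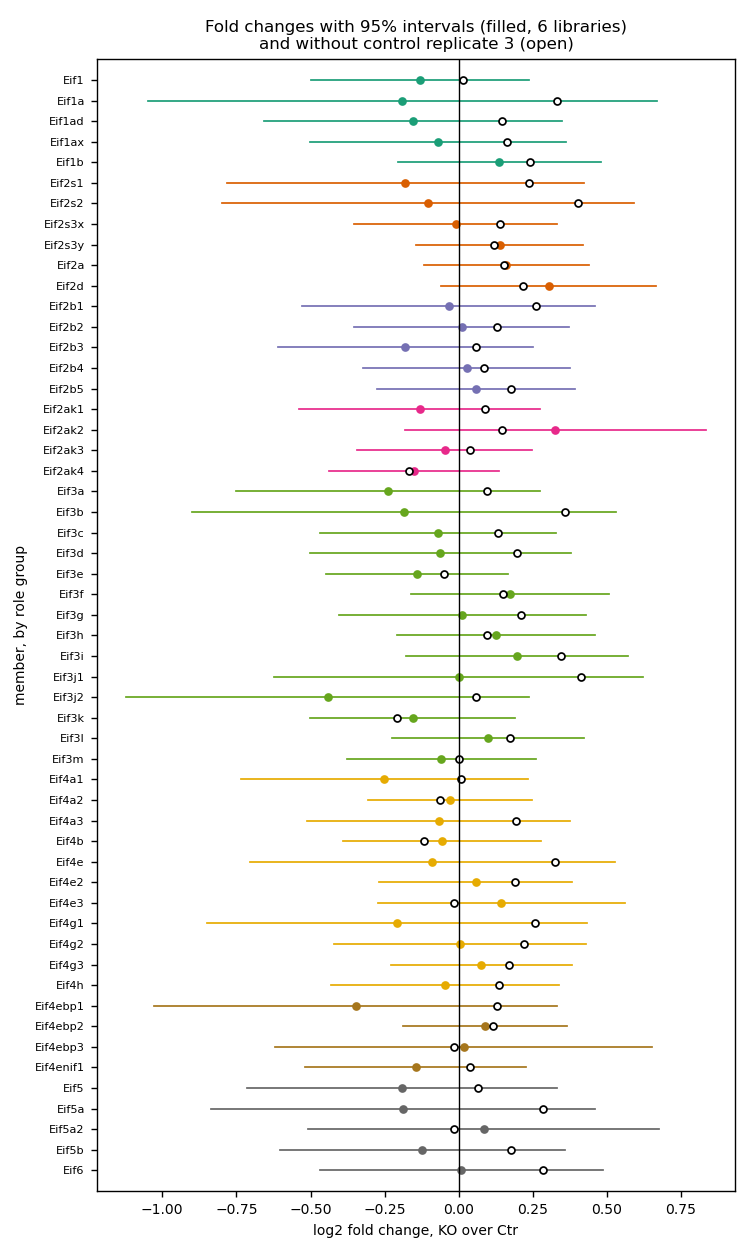
Log2 fold change of Gli3∆/∆ over Gli3+/+ for the 54 members at a mean of at least 1 CPM, with 95% intervals from edgeR over 6 libraries (filled points and lines, coloured by role group) and the estimate without Gli3+/+ replicate 3 (open points). All intervals cross 0, and 46 of the 54 open points lie above 0, against 52.4% of genes at that level. Replicate 3 was left out because the members were high in it, which moves most open points upward by construction.

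Without Gli3+/+ replicate 3, 47 of 55 members had a positive fold change, against 48.4% of all genes, with a median of 0.15 on the log2 scale against -0.003 over all genes. Still 0 members were called, against 0.363% of genes, and the lowest adjusted p was 0.486. That library was singled out because the members were high in it. Leaving it out therefore raises most of their fold changes by construction, and these counts are no test of a Gli3 effect. The members are also not independent of each other here, since all are read against the same pair of control libraries. The groups, now 2 against 3, did not overlap for 29 members, 27 of them higher in Gli3∆/∆, against 25.3% and 12.7% of all genes, and 2 lower, against 12.6%. An unadjusted p under 0.05 was reached by 5 members (9.09%), close to the 8% of all genes. They were Eif3b at 0.36 ± 0.12 (SE, adjusted p = 0.486) and Eif2s2 at 0.40 ± 0.14 (SE, adjusted p = 0.502). Eif3j1 stood at 0.41 ± 0.15 (SE, adjusted p = 0.550), Eif3i at 0.35 ± 0.14 (SE, adjusted p = 0.573) and Eif5a at 0.28 ± 0.12 (SE, adjusted p = 0.609). With any other library left out, 15 to 26 members had a positive fold change.

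The eIF1 and eIF1A genes act in the scanning complex. Eif1 stood at 455, 437 and 589.7 CPM in Gli3+/+ QSCs and at 511, 419 and 424 CPM in Gli3∆/∆ QSCs, and its relative Eif1b at 26.1, 22.1 and 29.5 CPM in Gli3+/+ QSCs and at 27.1, 27.9 and 30.5 CPM in Gli3∆/∆ QSCs. Gli3+/+ replicate 3 was the highest for Eif1, and the groups overlapped for both. Eif1b made up 9.67, 8.62 and 8.52% in Gli3+/+ and 8.99, 11 and 11.8% in Gli3∆/∆ of the CPM per kb of the pair. Of the eIF1A genes, X-linked Eif1ax stood at 118, 102 and 167 CPM in Gli3+/+ QSCs and at 134, 117 and 118 CPM in Gli3∆/∆ QSCs. Its autosomal relative Eif1a stood at 49.1, 51.7 and 116 CPM in Gli3+/+ QSCs and at 94.5, 48.5 and 47 CPM in Gli3∆/∆ QSCs. For Eif1a, the third library of Gli3+/+ and the first of Gli3∆/∆ were well above the other 4, and the fold change was -0.19 ± 0.38 (SE, 95% interval -1.05 to 0.67, adjusted p = 0.963).

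eIF2 carries the initiator tRNA as a complex with GTP. The alpha subunit gene Eif2s1, the target of the stress kinases, stood at 49.1, 39.4 and 88.6 CPM in Gli3+/+ QSCs and at 52.2, 52.3 and 51.7 CPM in Gli3∆/∆ QSCs. The beta subunit gene Eif2s2 stood at 95.5, 82 and 200.5 CPM in Gli3+/+ QSCs and at 133, 106 and 112 CPM in Gli3∆/∆ QSCs. Replicate 3 was the only Gli3+/+ library above the Gli3∆/∆ range for either gene. The fold change of Eif2s2 was -0.10 ± 0.31 (SE, 95% interval -0.80 to 0.59, adjusted p = 0.986) over all libraries. The gamma subunit is encoded on both sex chromosomes: X-linked Eif2s3x stood at 150.1, 147 and 197 CPM in Gli3+/+ QSCs and at 162, 156 and 172 CPM in Gli3∆/∆ QSCs, and Y-linked Eif2s3y at 88.6, 103 and 92.2 CPM in Gli3+/+ QSCs and at 107, 102 and 103 CPM in Gli3∆/∆ QSCs. Eif2s3y was present in every library, so each pool held RNA of males. Xist, the RNA of X inactivation, came to 0.708 to 1.79 CPM, and the paper lists these samples as males. Eif2s3y made up 35.1, 39.2 and 30% in Gli3+/+ and 37.8, 37.4 and 35.5% in Gli3∆/∆ of the CPM per kb of both. The fold changes were -0.01 ± 0.15 (SE, 95% interval -0.35 to 0.33, adjusted p = 1.0) for Eif2s3x and 0.14 ± 0.12 (SE, 95% interval -0.14 to 0.42, adjusted p = 0.906) for Eif2s3y. In the best alignment of their transcripts, 1232 of 1426 bases were identical (86.4%).

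Eif2a and Eif2d encode factors that can deliver tRNA to the ribosome outside the eIF2 cycle. Eif2a stood at 119, 115 and 115 CPM in Gli3+/+ QSCs and at 128, 122 and 140.4 CPM in Gli3∆/∆ QSCs, so all Gli3∆/∆ libraries lay above all Gli3+/+ libraries. The gap was narrow, and its fold change of 0.16 ± 0.12 (SE, 95% interval -0.12 to 0.44, adjusted p = 0.895) was inside the replicate error. Without Gli3+/+ replicate 3 it was 0.15. Eif2d stood at 23.7, 28.1 and 21.4 CPM in Gli3+/+ QSCs and at 26, 32.4 and 31.9 CPM in Gli3∆/∆ QSCs, with overlap, and its fold change was 0.30 ± 0.16 (SE, 95% interval -0.06 to 0.67, adjusted p = 0.785). It had the second largest positive fold change of the members at a mean of at least 1 CPM.

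The 5 eIF2B genes summed to 147, 147 and 197 CPM in Gli3+/+ and to 159.8, 150.2 and 178 CPM in Gli3∆/∆ QSCs. Replicate 3 was again the highest of the Gli3+/+ libraries. Their fold changes lay between -0.18 and 0.06 on the log2 scale, and without replicate 3 all 5 were positive, with a median of 0.13.

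The 4 kinases of eIF2 alpha answer different stresses. Eif2ak1, the heme-regulated kinase HRI, stood at 36.5, 34.7 and 53.1 CPM in Gli3+/+ QSCs and at 39.9, 36.6 and 36.9 CPM in Gli3∆/∆ QSCs. Eif2ak3, the endoplasmic reticulum kinase PERK, stood at 43.7, 41.4 and 50.2 CPM in Gli3+/+ QSCs and at 44, 42.4 and 44.5 CPM in Gli3∆/∆ QSCs. Eif2ak4, the amino acid sensor GCN2, stood at 38.2, 38.9 and 37.4 CPM in Gli3+/+ QSCs and at 36.7, 34.9 and 31.5 CPM in Gli3∆/∆ QSCs. All Gli3∆/∆ libraries of Eif2ak4 were below all Gli3+/+ libraries, the only member with that order. Its fold change was -0.15 ± 0.13 (SE, 95% interval -0.44 to 0.14, adjusted p = 0.896), and -0.17 without Gli3+/+ replicate 3. Eif2ak2, the double-stranded RNA sensor PKR, stood at 15.8, 13.9 and 9.61 CPM in Gli3+/+ QSCs and at 14.7, 20.1 and 14.4 CPM in Gli3∆/∆ QSCs. The groups of Eif2ak2 overlapped. It had the largest positive fold change of the members at a mean of at least 1 CPM, at 0.33 ± 0.22 (SE, 95% interval -0.18 to 0.83, adjusted p = 0.873), which became 0.15 without replicate 3, its lowest library. The fold changes of Eif2ak1 and Eif2ak3 were -0.13 ± 0.18 (SE, 95% interval -0.54 to 0.28, adjusted p = 0.939) and -0.05 ± 0.13 (SE, 95% interval -0.34 to 0.25, adjusted p = 0.982).

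Of the 14 eIF3 genes, 5 had a positive fold change over all libraries and 12 without Gli3+/+ replicate 3. Eif3a, the scaffold of the complex, stood at 429, 412 and 750.1 CPM in Gli3+/+ QSCs and at 437, 453 and 459 CPM in Gli3∆/∆ QSCs, and its fold change was -0.24 ± 0.23 (SE, 95% interval -0.75 to 0.27, adjusted p = 0.912). Eif3b stood at 166, 159.6 and 386 CPM in Gli3+/+ QSCs and at 206, 193 and 228 CPM in Gli3∆/∆ QSCs. Without replicate 3 all Gli3∆/∆ values of Eif3b were above the remaining Gli3+/+ values, while over all libraries the fold change was -0.18 ± 0.32 (SE, 95% interval -0.90 to 0.53, adjusted p = 0.954). Eif3i, a WD-repeat subunit, stood at 77.2, 74.9 and 101 CPM in Gli3+/+ QSCs and at 90.3, 88.4 and 111 CPM in Gli3∆/∆ QSCs, with a fold change of 0.20 ± 0.17 (SE, 95% interval -0.18 to 0.57, adjusted p = 0.898). Eif3f and Eif3h, which share a domain with deubiquitinases, did not follow replicate 3. Eif3f stood at 226, 239 and 222 CPM in Gli3+/+ QSCs and at 229, 240.4 and 305 CPM in Gli3∆/∆ QSCs, and Eif3h at 282, 292 and 267 CPM in Gli3+/+ QSCs and at 279, 277 and 362 CPM in Gli3∆/∆ QSCs. For both, the third Gli3∆/∆ library was the highest and the third Gli3+/+ library the lowest. Eif3k, a peripheral subunit, was lower in Gli3∆/∆ both with and without that library, at 124, 137 and 117 CPM in Gli3+/+ QSCs and at 98, 108 and 133 CPM in Gli3∆/∆ QSCs, with overlap.

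The loosely attached subunit eIF3J is encoded by a pair of nearly identical genes. Eif3j1 stood at 23.4, 25.4 and 48.6 CPM in Gli3+/+ QSCs and at 38.3, 29.4 and 29.6 CPM in Gli3∆/∆ QSCs, and Eif3j2 at 67.7, 58.7 and 142 CPM in Gli3+/+ QSCs and at 65.4, 61.2 and 70.9 CPM in Gli3∆/∆ QSCs. Their transcripts aligned over 2379 positions with 4 differing bases and 10 gap positions (99.4% identical). The division of reads between them is therefore uncertain. Eif3j2 had the lowest fold change of the members at a mean of at least 1 CPM, at -0.44 ± 0.30 (SE, 95% interval -1.12 to 0.24, adjusted p = 0.869), and 0.06 without replicate 3, its highest library.

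eIF4F assembles at the mRNA cap. Eif4e, the cap-binding subunit, stood at 74.5, 55.9 and 130.0 CPM in Gli3+/+ QSCs and at 78.1, 87.8 and 78.9 CPM in Gli3∆/∆ QSCs, and its fold change was -0.09 ± 0.27 (SE, 95% interval -0.71 to 0.53, adjusted p = 0.987). The lowest and the highest value of Eif4e were both in Gli3+/+. Eif4e2, which encodes the repressive cap-binding relative 4EHP, stood at 52.1, 50.7 and 66.4 CPM in Gli3+/+ QSCs and at 59.1, 56.7 and 60.1 CPM in Gli3∆/∆ QSCs. Eif4e3 stood at 36.3, 37.9 and 25.5 CPM in Gli3+/+ QSCs and at 31.4, 38.3 and 40.6 CPM in Gli3∆/∆ QSCs, with replicate 3 the lowest library. Eif4e1b had counts of 3, 2 and 4 in Gli3+/+ and of 12, 8 and 5 in Gli3∆/∆. Those groups do not overlap, but counts this low carry no usable fold change.

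The scaffold and helicase genes included the members of highest CPM. Eif4g1, the main scaffold, stood at 355, 371 and 778 CPM in Gli3+/+ QSCs and at 465, 419 and 419 CPM in Gli3∆/∆ QSCs, with a fold change of -0.21 ± 0.28 (SE, 95% interval -0.85 to 0.43, adjusted p = 0.939). Eif4g3, a second scaffold, stood at 228, 226 and 273 CPM in Gli3+/+ QSCs and at 259, 267 and 240.3 CPM in Gli3∆/∆ QSCs. Replicate 3 was also the highest library for Eif4g3, but stood closer to the others. The share of Eif4g3 in the CPM per kb of both was 29.8, 28.6 and 18.8% in Gli3+/+ and 26.8, 29.6 and 27.5% in Gli3∆/∆. Eif4g2, whose product lacks the eIF4E-binding part and serves cap-independent initiation, stood at 875, 768 and 1216 CPM in Gli3+/+ QSCs and at 1072, 900.0 and 897 CPM in Gli3∆/∆ QSCs. The helicase gene Eif4a1 stood at 612, 494 and 881 CPM in Gli3+/+ QSCs and at 567, 616 and 487 CPM in Gli3∆/∆ QSCs, and Eif4a2 at 784, 762 and 722 CPM in Gli3+/+ QSCs and at 756, 752 and 714 CPM in Gli3∆/∆ QSCs. The share of Eif4a1 in the CPM per kb of both was 49, 44.4 and 60% in Gli3+/+ and 48, 50.2 and 45.6% in Gli3∆/∆, highest in Gli3+/+ replicate 3. The fold change of Eif4a1 was -0.25 ± 0.21 (SE, 95% interval -0.74 to 0.23, adjusted p = 0.900), and 0.01 without that library. Both the share and the fold change of Eif4a1 leave out reads assigned to its nearly identical pseudogene Eif4a-ps4. Eif4b stood at 738, 806 and 678 CPM in Gli3+/+ QSCs and at 659.6, 655 and 822 CPM in Gli3∆/∆ QSCs, with overlap.

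**Figure D5:**
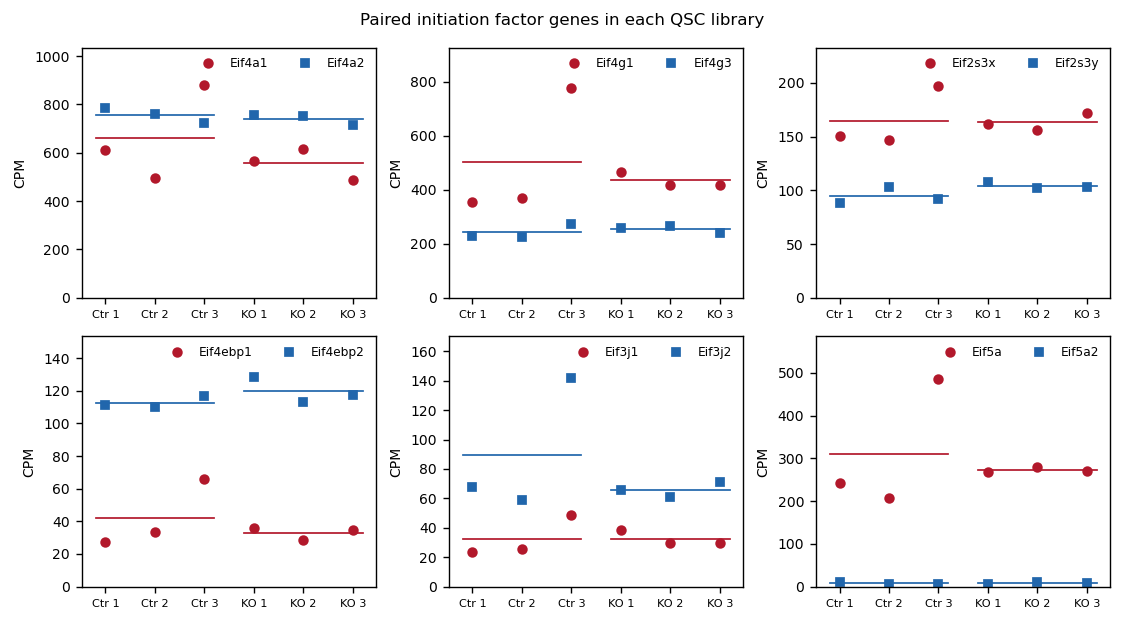
CPM in each of the 6 QSC libraries for 6 pairs of related members, with lines at the mean of each group of 3. Eif4a1, Eif4g1, Eif4g3, Eif2s3x, Eif4ebp1, Eif3j1, Eif3j2 and Eif5a are highest in Gli3+/+ replicate 3, while Eif4a2, Eif2s3y, Eif4ebp2 and Eif5a2 are not.

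The eIF4E-binding proteins restrain eIF4E. Eif4ebp1 stood at 27.1, 33.4 and 66 CPM in Gli3+/+ QSCs and at 35.6, 28.9 and 34.9 CPM in Gli3∆/∆ QSCs, or 42.2 ± 20.9 CPM (SD, n = 3) in Gli3+/+ and 33.1 ± 3.71 CPM (SD, n = 3) in Gli3∆/∆ QSCs. Its fold change was -0.35 ± 0.30 (SE, 95% interval -1.03 to 0.33, adjusted p = 0.901), and 0.13 without replicate 3. Eif4ebp2 stood at 111, 109.8 and 117 CPM in Gli3+/+ QSCs and at 128, 113 and 117 CPM in Gli3∆/∆ QSCs, with a fold change of 0.09 ± 0.12 (SE, 95% interval -0.19 to 0.37, adjusted p = 0.939). Eif4ebp1 made up 39.1, 44.5 and 59.9% in Gli3+/+ and 42.2, 40.2 and 43.9% in Gli3∆/∆ of the CPM per kb of both. Eif4ebp3 was low, at 3.9, 4.76 and 4.04 CPM in Gli3+/+ QSCs and at 5.06, 2.72 and 5.09 CPM in Gli3∆/∆ QSCs, with overlap. Eif4enif1, which encodes the eIF4E transporter 4E-T, stood at 70.6, 71.1 and 99.9 CPM in Gli3+/+ QSCs and at 76.5, 68.8 and 73.2 CPM in Gli3∆/∆ QSCs, with overlap.

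The last steps are start codon recognition, subunit joining and the first peptide bonds. Eif5, whose product makes eIF2 hydrolyse GTP, stood at 338, 307 and 510.0 CPM in Gli3+/+ QSCs and at 428, 289.7 and 294 CPM in Gli3∆/∆ QSCs. Eif5b, for the factor that joins the large subunit, stood at 139, 136 and 232 CPM in Gli3+/+ QSCs and at 159, 144 and 163 CPM in Gli3∆/∆ QSCs. Eif6, whose product keeps the large subunit free, stood at 47.6, 43 and 73.7 CPM in Gli3+/+ QSCs and at 49.9, 53 and 62.3 CPM in Gli3∆/∆ QSCs. Replicate 3 was the highest library for each. Eif5a, for the hypusine-containing factor that helps ribosomes through difficult peptide bonds, stood at 242, 208 and 485 CPM in Gli3+/+ QSCs and at 269, 280.5 and 271 CPM in Gli3∆/∆ QSCs. Its Gli3∆/∆ values were close to each other and its Gli3+/+ values were not, at 312 ± 152 CPM (SD, n = 3) in Gli3+/+ and 273 ± 6.22 CPM (SD, n = 3) in Gli3∆/∆ QSCs, and its fold change was -0.19 ± 0.29 (SE, 95% interval -0.84 to 0.46, adjusted p = 0.949). Its relative Eif5a2 stood at 9.93, 7.07 and 6.73 CPM in Gli3+/+ QSCs and at 6.18, 11.1 and 7.83 CPM in Gli3∆/∆ QSCs and made up 1.91, 1.58 and 0.651% in Gli3+/+ and 1.08, 1.84 and 1.35% in Gli3∆/∆ of the CPM per kb of both.

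A processed pseudogene of Eif5a, Eif5al3-ps, differed between the groups although Eif5a was not called. It had 0.0497, 0.0741 and 0.325 CPM in Gli3+/+ and 5.36, 5.0 and 3.58 CPM in Gli3∆/∆ QSCs, a log2 fold change of 4.98 ± 0.59 (SE, adjusted p = 0.00816) in edgeR. It was called by edgeR, DESeq2 and limma-voom, and was named after its values were seen. Its annotated transcript aligned with one of Eif5a over 434 bases, 422 of them identical (97.2%). The aligned Eif5a transcript has 1437 bases, so reads from outside the alignment also separate the genes. Of the 12 differing bases of the alignment, 6 lie in the 60 bases that differ most, which are shown. They are bases 595 to 654 of the aligned transcript of Eif5a (gene at chr11:69916714-69921958, minus strand) and chr5:90132484-90132543 on the plus strand for the pseudogene (GENCODE vM21, GRCm38), with the differing bases in capitals.
Eif5a: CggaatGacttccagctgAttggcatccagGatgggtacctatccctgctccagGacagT
Eif5al3-ps: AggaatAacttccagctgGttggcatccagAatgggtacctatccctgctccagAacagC
Adding the pseudogene's counts to Eif5a left 242, 208 and 486 CPM in Gli3+/+ and 274, 285 and 274 CPM in Gli3∆/∆ QSCs, with a log2 fold change of -0.16. Another, Eif3s6-ps2, derived from Eif3e, had 2.91, 5.56 and 6.22 CPM in Gli3+/+ and 17.7, 8.86 and 17.7 CPM in Gli3∆/∆ QSCs, without overlap, at 1.59 ± 0.35 (SE, adjusted p = 0.160). DESeq2 called it, and edgeR and limma-voom did not. Eif3s6-ps3, also derived from Eif3e, had 0.273, 0.711 and 0.464 CPM in Gli3+/+ and 2.06, 0.865 and 2.2 CPM in Gli3∆/∆ QSCs, without overlap, at 1.79 ± 0.49 (SE, adjusted p = 0.334), and likewise only DESeq2 called it (adjusted p = 0.0445). Eif3e itself stood at 215, 199 and 247 CPM in Gli3+/+ QSCs and at 199, 189 and 212 CPM in Gli3∆/∆ QSCs. Its fold change was -0.14, and -0.06 with the counts of its pseudogenes added. In the best alignments with Eif3e, 1284 of 1338 positions were identical for Eif3s6-ps2 (96.0%) and 1242 of 1358 for Eif3s6-ps3 (91.5%). The division of reads between these copies and Eif3e is therefore uncertain. Both copies were named after their values were seen, and of all genes 13% did not overlap. Eif4a-ps4 matched Eif4a1 at 1217 of 1218 aligned bases, so counts of both are uncertain. Eif4a-ps4 had 131.5, 106 and 256 CPM in Gli3+/+ and 139, 130.5 and 126 CPM in Gli3∆/∆ QSCs. Adding it to Eif4a1 gave 744, 599 and 1137 CPM in Gli3+/+ and 706, 746 and 613 CPM in Gli3∆/∆ QSCs, with a log2 fold change of -0.26.

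Other genes of the pathway were followed as lists. Of 13 elongation and termination genes 0 were called by edgeR, DESeq2 or limma-voom and 0 had an unadjusted p under 0.05 in edgeR. Their median log2 fold change was 0.04, and 0.21 without Gli3+/+ replicate 3. That library was highest for 5 of the 13, among them the termination factor gene Etf1 at 122, 112 and 306 CPM in Gli3+/+ QSCs and at 168, 124 and 120.3 CPM in Gli3∆/∆ QSCs. The elongation factor gene Eef1a1 was even across libraries, at 10003, 10644 and 10176 CPM in Gli3+/+ QSCs and at 10205, 10258 and 11814 CPM in Gli3∆/∆ QSCs. Of 23 initiation partners outside the Eif symbols, again 0 were called by any of these tools and 0 had an unadjusted p under 0.05 in edgeR. Their median was -0.04, and 0.10 without replicate 3, which was highest for 15. Among them, the poly(A)-binding protein gene Pabpc1 stood at 661, 641 and 896 CPM in Gli3+/+ QSCs and at 791, 634 and 744 CPM in Gli3∆/∆ QSCs.

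The 11 genes of the mTORC1 arm had 0 calls in edgeR and limma-voom, 1 call in DESeq2 and 1 unadjusted p under 0.05 in edgeR. That gene was in both cases Deptor, an inhibitor of mTOR. It stood at 391, 380.2 and 602 CPM in Gli3+/+ QSCs and at 114, 216 and 153 CPM in Gli3∆/∆ QSCs, without overlap, and its fold change of -1.51 ± 0.27 (SE, adjusted p = 0.0744) missed the threshold in edgeR but not in DESeq2 (adjusted p = 9.69e-06). Mtor itself stood at 75.5, 79 and 83.1 CPM in Gli3+/+ QSCs and at 83.8, 80.7 and 82.5 CPM in Gli3∆/∆ QSCs. The groups did not overlap for 4 of the 11 genes, against 13% of all genes. Rptor and Mlst8 were higher in Gli3∆/∆ (adjusted p = 0.912 and 0.755 in edgeR). Deptor and Rps6kb1 were lower, the latter with an adjusted p of 0.834 in edgeR. Of 18 genes of the integrated stress response, which phosphorylated eIF2 alpha induces through Atf4, 0 were called by edgeR, DESeq2 or limma-voom, and 1, Trib3, had an unadjusted p under 0.05 in edgeR. Their median was -0.22, and 0.04 without replicate 3, which was the highest library for 14 of the 18. Atf4 stood at 303, 258 and 412 CPM in Gli3+/+ QSCs and at 314, 292 and 253 CPM in Gli3∆/∆ QSCs, and the amino acid transporter gene Slc7a5 at 111, 145 and 436 CPM in Gli3+/+ QSCs and at 168, 124 and 137 CPM in Gli3∆/∆ QSCs. Of 6 genes for hypusine and polyamine synthesis, some of which modify eIF5A, 0 were called by these tools and 0 had an unadjusted p under 0.05 in edgeR. Their median was -0.17, and -0.007 without replicate 3, which was the highest library for 5. Among the 12 satellite cell markers, replicate 3 was highest for 3 and lowest for 3. Of genes at a mean of at least 1 CPM, it was highest for 27.5% and lowest for 25.3%. It was highest for Sdc4, at 961, 913 and 2714 CPM in Gli3+/+ QSCs and at 1401, 906 and 891 CPM in Gli3∆/∆ QSCs. It was lowest for Calcr, at 259, 213 and 129.5 CPM in Gli3+/+ QSCs and at 263, 231 and 227 CPM in Gli3∆/∆ QSCs.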

How the data were processed

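Poly(A)+ RNA from sorted satellite cells was sequenced in 12 libraries. The values are estimated counts, which the authors obtained with salmon on GRCm38 and a GENCODE annotation, summed to genes with tximport and cleared of low genes. Of them, 49.2% are not whole. Separate tables by the authors hold DESeq2 fold changes and p-values, and only their gene biotype column was used here. Of 12 count columns, the 6 QSC columns carry sample titles. The other 6 match no label and were not used, so the planned comparisons of ASCs gave no value. The members and gene lists were chosen with earlier results of these data known. Replicates are separate libraries of pooled mice.

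Counts were rounded and tested in edgeR 4.0.16 (R 4.3.3) with TMM normalization, the quasi-likelihood test over all 25093 genes and Benjamini-Hochberg adjustment, over the 6 QSC libraries. Calls required an adjusted p below 0.05 together with a 1.2-fold difference or more. No further filter was applied. Other settings tried were limma-voom (limma 3.58.1, quality weights per sample), DESeq2 1.42.0, edgeR with size factors, 2 filters on low counts, protein-coding genes only, no minimum fold change, the replicate number as a block, leaving out each library, and pseudogene counts added to their source genes, the last chosen after seeing the data. A simulation gave 200 of the 25093 genes a true difference between the groups. Where it was 2-fold, edgeR found 44% of them, DESeq2 73% and limma-voom 25%. Where it was 4-fold, the shares were 92, 95 and 84%. Of genes without a difference, edgeR called 14, DESeq2 52 and limma-voom 3. Calls by DESeq2 alone, as for Deptor, Eif3s6-ps2 and Eif3s6-ps3, are therefore less certain. Exon lengths came from GENCODE vM21 (52 of 55 members with the same gene version), promoter sequences from RefSeq (GRCm38.p6), and transcripts were aligned with blastn. Values per library were given for members whose groups did not overlap, for the largest and smallest fold changes and levels, and for paralogs, kinases and eIF4E-binding proteins. Other members were added where their role group is described. No label pairs libraries by replicate number. Correlations of deviations between same-numbered libraries were -0.182, -0.0667 and -0.0474, and between differently numbered ones -0.152 to 0.241. So few values cannot exclude a shared batch.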

Additional observations from a re-analysis of the deposited data

How the results depend on the processing

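Under every alternative run, 0 of 55 members were called. The direction of the members as a set depended on one library. Leaving out each library in turn gave 15 to 47 members with a positive fold change, a median log2 fold change of -0.1298 to 0.1472, 0 to 5 members with an unadjusted p under 0.05 and 4 to 29 members whose groups did not overlap, with each upper value reached without Gli3+/+ replicate 3. Without Gli3+/+ replicate 2 the unadjusted count was 2. With limma-voom quality weights, 38 members were positive and the median was 0.07868. With protein-coding genes only, the members' summed mean in Gli3∆/∆ was 9870.1 CPM, against 9293 CPM with all genes, because the total then holds fewer genes.

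Ranges of the log2 fold change over the left-out libraries were -0.5981 to 0.3299 for Eif1a, -0.238 to 0.08753 for Eif2ak1, -0.09899 to 0.03694 for Eif2ak3, -0.3272 to 0.4021 for Eif2s2, -0.07829 to 0.1386 for Eif2s3x, -0.3835 to 0.09557 for Eif3a and -0.3937 to 0.3596 for Eif3b. They were -0.6631 to 0.05893 for Eif3j2, -0.4166 to 0.008982 for Eif4a1, -0.3183 to 0.3242 for Eif4e, -0.5843 to 0.1298 for Eif4ebp1, -0.4038 to 0.2583 for Eif4g1 and -0.4024 to 0.2838 for Eif5a. Each of these fold changes turned positive without Gli3+/+ replicate 3, and that of Eif2s3x also without Gli3∆/∆ replicate 2. limma-voom quality weights turned the fold change to 0.02079 for Eif1a, 0.203 for Eif2s2, 0.07741 for Eif2s3x, 0.1761 for Eif3b, 0.1878 for Eif4e, 0.09596 for Eif4g1 and 0.1238 for Eif5a. The fold changes of Eif2a, Eif2ak2, Eif2ak4, Eif2d, Eif2s3y, Eif3i and Eif4ebp2 kept their sign under all alternatives run.

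Whether the replicate number pairs the libraries is not known. With it as a block, 0 members were called and 26 were positive, and the fold changes of Eif2s2, Eif2s3x and Eif4e became 0.01161, 0.001956 and 0.0004013. All genes called numbered 384 with DESeq2 and 58 without Gli3∆/∆ replicate 3, against 88 in the main test. The order by protein length was not run, since no protein table was used. The absence of calls with 3 libraries a group does not show equal levels.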
